A study of Rattus norvegicus with 42 samples.

Results

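The genes described here are 8 markers of the alveolar type 1 cell, Rtkn2, Ager, Hopx, Aqp5, Pdpn, Akap5, Clic5 and Emp2, found by symbol among the 30044 gene symbols that both count tables share. All 8 were present and all 8 passed the filter on low counts at both time points. RNA from a piece of whole lung was sequenced from 42 male Fischer rats (F344/DuCrl) bought at 3 months of age. Fat supplied 18% of the calories in the regular chow and 60% in the high-fat chow, and each rat stayed on 1 of them from before the exposure until death. They breathed air or crystalline silica (15 mg per cubic metre, 6 hours a day on 5 days, whole-body inhalation) and were killed 3 or 9 months later. The 3-month groups held 4 regular-diet air, 5 regular-diet silica, 5 high-fat air and 5 high-fat silica rats. At 9 months the groups held 6 regular-diet air, 5 regular-diet silica, 6 high-fat air and 6 high-fat silica rats. Every rat gave 1 library and no rat appears at both times, so time since exposure, age and count table are 1 factor.

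Alveolar type 1 cells are thin, flat epithelial cells that cover most of the gas-exchange surface of the lung. They share a basement membrane with the capillary endothelium, carry water and ions across the alveolar wall, and are renewed from cuboidal alveolar type 2 cells, which make surfactant. YAP/TAZ and NKX2-1 are transcriptional regulators known to act in type 1 cell differentiation and maintenance. Inhaled silica crystals deposit in the alveoli and cause lasting inflammation, lipoproteinosis and fibrosis. The comparisons ask whether silica, diet or their combination changed the type 1 markers, and whether the silica difference was larger at the later time.

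The 3-month libraries held 5143424 to 8259635 counts and the 9-month libraries 3078216 to 8319382, and the shallowest was that of rat 2 in the high-fat silica group. Rats are numbered within each group by the order of their tags. A member had between 601 and 13670 counts in a library. Levels below are CPM, counts scaled to library size, after TMM scaling within a time point. The 2 tables were scaled separately and the counts carry no gene length, so levels are compared neither between genes nor, except as differences of differences, between times. The share of counts on the mitochondrial ribosomal RNA genes Rnr1 and Rnr2 averaged 0.957% to 1.26% in the groups at 3 months. At 9 months it averaged 1.22% in regular-diet air, 3.67% in regular-diet silica, 6.21% in high-fat air and 7.66% in high-fat silica. Its 9-month ranges did not overlap between air and silica on either diet. They were 0.375% to 2.29% in air and 2.6% to 5.35% in silica on the regular diet. On the high-fat diet they were 4.62% to 7.19% in air and 7.29% to 7.85% in silica.

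The type 1 markers were lower in silica-exposed lung on both diets and at both times. At 3 months 7 of 8 fell on the regular diet (background: 16.8% of the 15234 genes tested were called, 6.6% lower and 10.2% higher) and 6 of 8 fell on the high-fat diet (background: 17.4% called, 8.19% lower and 9.23% higher). At 9 months 7 of 8 fell on the regular diet (background: 45.1% of 15276 genes called, 20.6% lower and 24.5% higher) and all 8 fell on the high-fat diet (background: 51.6% called, 24.9% lower and 26.7% higher). No member rose in any of the 4 comparisons. A gene was called at an adjusted p below 0.05 in edgeR's quasi-likelihood test with Benjamini-Hochberg adjustment over all genes tested, the test behind every adjusted p below. The median log2 fold change of the 8 genes was -0.30 and -0.25 at 3 months and -0.39 and -0.33 at 9 months on the regular and the high-fat diet. The median over all genes tested lay between -0.01 and 0.00 in these comparisons. Their lower quartile was -0.16 and -0.13 at 3 months and -0.23 and -0.27 at 9 months on the regular and the high-fat diet. At 9 months Clic5 on the regular diet and Ager and Pdpn on the high-fat diet lay above that quartile. All other member values lay below it. In a piece of whole lung, fewer type 1 cells, less RNA per type 1 cell and a larger share of RNA from other cells cannot be told apart.

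**Figure D1:**
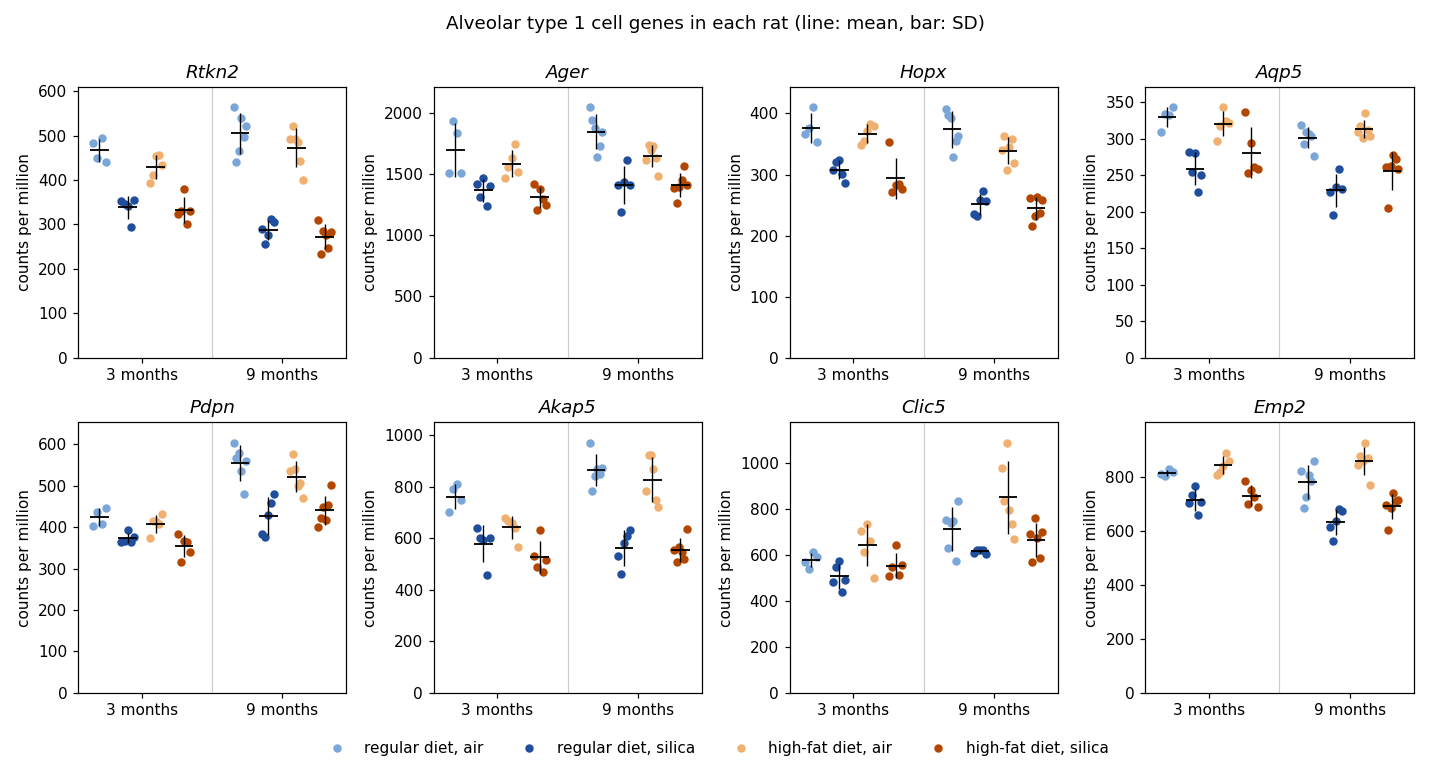
Levels of the 8 genes in each of the 42 rats. The y axis gives CPM from 0 and the x axis the 4 groups at 3 and at 9 months. Points are rats, lines are group means and bars are SDs. Rtkn2 in silica-exposed rats at 9 months lies between 233 and 312, below all 12 air rats, whose lowest value is 399.

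Rtkn2 encodes rhotekin 2, a protein of the rhotekin family. At 3 months its level on the regular diet was 440.0, 451, 484 and 494 CPM in air and 294, 340.5, 346, 354 and 356 CPM in silica. High-fat rats had 392, 412, 433, 453 and 457 CPM in air and 301, 322, 329.7, 331 and 379 CPM in silica. Every silica rat lay below every air rat on its diet, and rat 4 of the regular-diet silica group stood lowest. The log2 fold change was -0.47 ± 0.07 (SE, adjusted p = 4.06e-05) on the regular and -0.37 ± 0.06 (adjusted p = 0.000265) in the high-fat rats.

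At 9 months Rtkn2 ran from 439.7 to 564 CPM (median 509.6, n = 6) in regular-diet air and was 255, 276, 289.9, 306 and 312 CPM in regular-diet silica. In high-fat air it ran from 399 to 522 CPM (median 489, n = 6) and in high-fat silica from 233 to 309.5 CPM (median 279.6, n = 6). Again no silica rat reached the lowest air rat of its diet. The log2 fold change was -0.81 ± 0.08 (adjusted p = 4.78e-09) on the regular and -0.79 ± 0.07 (adjusted p = 1.59e-09) on the high-fat diet. These are levels 1.76-fold and 1.73-fold lower than in air. Of all genes tested, 2.76% and 4.81% had a lower log2 fold change in the same comparisons. Rtkn2 had the lowest log2 fold change of the 8 genes in all 4 silica comparisons.

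Akap5 encodes an A-kinase anchoring protein that holds protein kinase A and other signalling enzymes at the membrane. On the regular diet at 3 months it was 702, 747, 791 and 809 CPM in air and 456, 595, 602, 603 and 641 CPM in silica. High-fat rats had 565, 639, 661, 667 and 679 CPM in air and 469, 488, 516, 529.7 and 632 CPM in silica. The groups were separate on the regular diet and overlapped on the high-fat diet, where 1 silica rat lay above the lowest air rat. Log2 fold changes were -0.40 ± 0.09 (adjusted p = 0.00315) and -0.29 ± 0.08 (adjusted p = 0.0192). The high-fat call was lost when rat 2 or 3 of the air group or rat 2 or 4 of the silica group was left out (log2 fold change -0.26, -0.26, -0.25 and -0.25, edgeR adjusted p from 0.0511 to 0.0691).

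At 9 months Akap5 ran from 783 to 972 CPM (median 859, n = 6) in regular-diet air and was 459, 532, 583, 607 and 634 CPM in silica. It ran from 723 to 925 CPM (median 825, n = 6) in high-fat air and from 509 to 636 CPM (median 550.1, n = 6) in high-fat silica. No silica rat reached the air range on either diet. This gave a log2 fold change of -0.62 ± 0.08 (adjusted p = 6.1e-07) on the regular and -0.58 ± 0.08 (adjusted p = 5.48e-07) on the high-fat diet.

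Hopx encodes a small homeodomain protein that does not bind DNA itself and marks type 1 cells as they mature. On the regular diet at 3 months it was 354, 366, 376 and 410.2 CPM in air and 287, 301, 308, 321 and 324 CPM in silica. High-fat rats had 348, 355, 371, 379 and 383 CPM in air and 272, 277, 283, 284 and 353 CPM in silica. Silica rat 1, at 353 CPM, was the only one of its group to reach the air range. Log2 fold changes were -0.29 ± 0.07 (adjusted p = 0.00418) and -0.32 ± 0.06 (adjusted p = 0.000855).

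At 9 months Hopx ran from 328 to 408 CPM (median 377, n = 6) in regular-diet air and was 232, 236, 257, 258 and 273 CPM in silica. It ran from 307 to 364 CPM (median 343, n = 6) in high-fat air and from 215 to 263 CPM (median 248, n = 6) in high-fat silica. The ranges did not touch on either diet. This gave a log2 fold change of -0.57 ± 0.06 (adjusted p = 6.14e-08) on the regular and -0.47 ± 0.06 (adjusted p = 4.1e-07) on the high-fat diet.

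The promoters of Rtkn2 and Akap5, the pair with the lowest log2 fold changes at 9 months, are shown with that of Clic5, the member called least often. All 8 members matched RefSeq's promoter table (build GRCr8, 300 bases around each gene start). The GC box GGGCGG, the core letters bound by SP1-type factors, was searched on both strands and occurred in 6 of the 8 windows and in 33.1% of 33469 windows of all genes. GGAATG, a TEAD core, occurred in 0 of 8 members and 14.2% of all windows, and CACTTG, an NKX2-1 core, in 0 of 8 and 14.1%. A match is a description of the letters only. The 100 bases before each start follow, 5′ to 3′ on the gene's strand, at chr20:20608864-20608963 (minus) for Rtkn2, chr6:100787069-100787168 (plus) for Akap5 and chr9:24310966-24311065 (minus) for Clic5, with GC boxes in capitals, here all on the opposite strand as CCGCCC.
Rtkn2: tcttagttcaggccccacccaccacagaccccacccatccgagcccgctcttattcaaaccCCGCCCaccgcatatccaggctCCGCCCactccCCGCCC
Akap5: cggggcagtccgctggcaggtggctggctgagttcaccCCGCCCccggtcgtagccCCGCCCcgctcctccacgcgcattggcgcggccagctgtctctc
Clic5: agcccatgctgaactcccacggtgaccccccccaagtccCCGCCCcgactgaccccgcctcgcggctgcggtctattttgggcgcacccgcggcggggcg
These stretches hold 3, 2 and 1 GC boxes and are 66%, 75% and 74% G or C.

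Ager encodes the receptor for advanced glycation end products, a membrane receptor of the immunoglobulin family that binds S100 proteins. On the regular diet at 3 months it was 1507, 1509.6, 1838 and 1932 CPM in air and 1236, 1313, 1401, 1418 and 1469 CPM in silica. High-fat rats had 1469.9, 1514, 1562, 1635 and 1749 CPM in air and 1208, 1245, 1298, 1379 and 1417 CPM in silica. The ranges were separate on both diets, with log2 fold changes of -0.31 ± 0.08 (adjusted p = 0.00647) and -0.28 ± 0.07 (adjusted p = 0.00916).

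At 9 months Ager ran from 1643 to 2047 CPM (median 1858, n = 6) in regular-diet air and was 1187, 1409.9, 1412, 1432 and 1614 CPM in silica. It ran from 1487 to 1734 CPM (median 1663, n = 6) in high-fat air and from 1267 to 1569 CPM (median 1403, n = 6) in high-fat silica. The groups were separate on the regular diet, and 1 high-fat silica rat lay within the high-fat air range. Ager had a log2 fold change of -0.39 ± 0.07 (adjusted p = 5.02e-05) on the regular and -0.22 ± 0.07 (adjusted p = 0.00633) on the high-fat diet.

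Some ligand genes of the Ager protein moved the other way. Of 4 ligand genes tested, 2 rose at 3 months on the regular diet and 3 rose in each of the other silica comparisons. Of all genes tested, 10.2% and 9.23% rose at 3 months and 24.5% and 26.7% at 9 months on the regular and the high-fat diet. Hmgb1, also on the ligand list, averaged below 1 CPM at both times and was not tested. S100a9, a calcium-binding protein abundant in neutrophils, had log2 fold changes of 2.70 (adjusted p = 7.45e-09) and 2.10 (adjusted p = 3.92e-08) at 3 months and 2.66 (adjusted p = 3.47e-08) and 2.74 (adjusted p = 7.69e-09) at 9 months on the regular and the high-fat diet. S100a8, its dimer partner, rose by 1.48 and 1.11 at 3 months and by 1.55 and 1.32 at 9 months on the log2 scale. S100b fell in 1 comparison, high-fat silica at 9 months (log2 fold change -0.88, adjusted p = 0.0178). Both S100a8 and S100a9 are also on the neutrophil list.

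Aqp5 encodes a water channel of the apical membrane. Its group means at 3 months were 329.8 ± 14.2 CPM (SD, n = 4) in regular-diet air and 259 ± 23 (n = 5) in silica, with separate ranges and a log2 fold change of -0.35 ± 0.08 (adjusted p = 0.00281). High-fat rats at 3 months had 296, 318, 322, 324 and 343 CPM in air and 253, 259, 262, 294 and 337 CPM in silica. Silica rat 1, at 337 CPM, lay inside the air range, and the difference was not called (log2 fold change -0.19 ± 0.07, 95% confidence interval -0.34 to -0.04, adjusted p = 0.0712). Without that rat the log2 fold change was -0.26 (edgeR adjusted p = 0.00656), and with all rats DESeq2 (adjusted p = 0.0498) and limma (adjusted p = 0.0108) also called it.

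At 9 months Aqp5 means were 301 ± 14.5 CPM (n = 6) in regular-diet air and 229 ± 22.3 (n = 5) in silica, and 313 ± 12.5 (n = 6) in high-fat air and 256 ± 26 (n = 6) in silica. The ranges were separate on both diets. Rat 2, the shallowest library, was the lowest of the high-fat silica rats at 205 CPM, with the others from 259 to 277. The log2 fold changes were -0.39 ± 0.07 (adjusted p = 2e-05) and -0.29 ± 0.06 (adjusted p = 0.00037).

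Pdpn encodes podoplanin, a mucin-type membrane glycoprotein that lymphatic endothelium and mesothelium also make. Its means at 3 months were 423 ± 21.8 CPM (n = 4) in air and 373 ± 12.3 (n = 5) in silica on the regular diet, and 409 ± 21.7 (n = 5) and 354 ± 26.1 (n = 5) on the high-fat diet. The log2 fold changes were -0.18 ± 0.06 (adjusted p = 0.0255) and -0.21 ± 0.05 (adjusted p = 0.00774). The regular-diet call was lost without air rat 2 (-0.17, edgeR adjusted p = 0.0673), air rat 4 (-0.16, adjusted p = 0.0968) or silica rat 4 (-0.18, adjusted p = 0.0564), and with no filter on low counts (-0.17, adjusted p = 0.0541). At 9 months the means were 554 ± 42.8 CPM (n = 6) and 426 ± 45.8 (n = 5) on the regular diet, and 522 ± 37.3 (n = 6) and 440.3 ± 36.1 (n = 6) on the high-fat diet. There the log2 fold changes were -0.38 ± 0.07 (adjusted p = 8.59e-05) and -0.24 ± 0.07 (adjusted p = 0.00346), and 1 silica rat on each diet reached the air range.

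Emp2 encodes epithelial membrane protein 2, a small 4-pass membrane protein that is also made outside type 1 cells. It had the tightest group of the 3-month air rats, at 802, 809, 818 and 826 CPM on the regular diet, against 658, 703, 704, 732 and 767 CPM in silica. On the high-fat diet the 3-month means were 842 ± 32.9 CPM (n = 5) in air and 728 ± 38.9 (n = 5) in silica. At 9 months they were 779.8 ± 64.2 (n = 6) and 632 ± 48.9 (n = 5) on the regular diet, and 857 ± 51.2 (n = 6) and 690.4 ± 46.8 (n = 6) on the high-fat diet. Silica and air rats were separate in all 4 comparisons. The log2 fold changes were small and precise: -0.19 ± 0.05 (adjusted p = 0.00986) and -0.21 ± 0.05 (adjusted p = 0.0029) at 3 months, and -0.30 ± 0.06 (adjusted p = 0.000334) and -0.31 ± 0.06 (adjusted p = 0.000108) at 9 months.

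Clic5 was the member called least often, though its log2 fold change was below 0 in every silica comparison. It encodes a chloride intracellular channel protein that links membranes to the actin cytoskeleton and is also made by endothelial cells. At 3 months it was 536, 568, 589 and 612 CPM in regular-diet air and 437, 481, 490.0, 546 and 573 CPM in silica. Among high-fat rats it was 500.3, 611, 660.0, 702 and 731 CPM in air and 507, 509.8, 547, 553 and 639.6 CPM in silica. The groups overlapped on both diets and neither difference was called (log2 fold change -0.19, 95% interval -0.38 to 0.00, adjusted p = 0.172, and -0.22, -0.40 to -0.03, adjusted p = 0.0976). Without high-fat air rat 5 or high-fat silica rat 3 the high-fat difference was called (-0.30, edgeR adjusted p = 0.0124, and -0.28, adjusted p = 0.0347).

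At 9 months the regular-diet silica rats were close together in Clic5, at 601, 609, 620.1, 620.1 and 621 CPM, while the air rats ran from 571 to 832 CPM (median 742, n = 6). All 5 silica rats lay inside the air range, and the difference was not called (-0.21 ± 0.10, adjusted p = 0.0963). Without air rat 5 it was -0.27 (edgeR adjusted p = 0.0327), and it was also called in a fit of these groups alone (adjusted p = 0.0421) and with upper quartile scaling (adjusted p = 0.0476). High-fat air rats ran from 667 to 1087 CPM (median 813, n = 6) and high-fat silica rats from 569 to 758 CPM (median 683, n = 6), with a called log2 fold change of -0.36 ± 0.10 (adjusted p = 0.00359). With the share of Rnr1 and Rnr2 as a covariate, the 9-month differences were -0.02 (adjusted p = 0.922) and -0.24 (adjusted p = 0.0871), and the high-fat call was lost. The other 7 members kept their 9-month calls on both diets in that fit. Because the 9-month share did not overlap between air and silica, that fit cannot fully tell the share and silica apart.

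**Figure D2:**
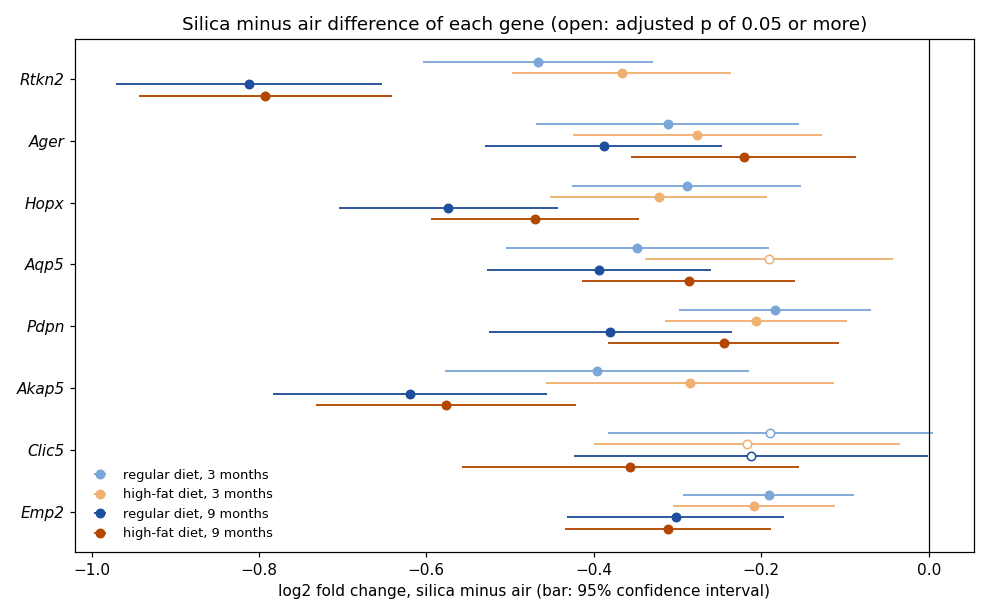
Silica minus air difference of each of the 8 genes in the 4 comparisons. The x axis gives the log2 fold change with its 95% confidence interval, filled points have an adjusted p below 0.05 and open points do not. All 32 points lie left of 0, and Rtkn2 at 9 months lies farthest left, at -0.81 and -0.79.

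Counted by rats alone, without a model, all silica rats lay below all air rats in 7 of 8 members on the regular diet and 3 of 8 on the high-fat diet at 3 months, against 5.97% and 5.51% of all genes tested. At 9 months this held for 6 of 8 and 5 of 8, against 9.8% and 12.8% of all genes. Rtkn2 and Emp2 were separate in all 4 comparisons and Clic5 in none of them.

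The high-fat diet alone changed none of the 8 genes past the threshold. In air-exposed rats edgeR's quasi-likelihood test called 0 of 8 at 3 months (background: 2.95% of genes) and 0 of 8 at 9 months (background: 15.2%). In silica-exposed rats 0 of 8 were called at 3 months (background: 0.702%) and 0 of 8 at 9 months (background: 3.52%). At an unadjusted p below 0.05 the members' counts in these 4 comparisons were 1, 4, 0 and 1 of 8, and 21%, 29.1%, 12.4% and 17.7% of all genes passed the same threshold. DESeq2 and limma each called 0, 1, 0 and 0, and the 1 gene was Ager. All comparisons of 1 time point share groups: each diet comparison uses the air or the silica rats of the silica comparisons.

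The diet comparisons with the smallest p-values involved different members at the 2 times. Akap5 at 3 months in air was lower in every high-fat than in every regular-diet rat, as were 4.64% of all genes (702 to 809 CPM on the regular and 565 to 679 CPM on the high-fat diet, log2 fold change -0.25 ± 0.09, adjusted p = 0.112). At 9 months in air Clic5 was 848 ± 157 CPM on the high-fat and 711 ± 94.2 CPM on the regular diet (0.25 ± 0.10, adjusted p = 0.0792), with overlapping ranges. Ager and Hopx in the same rats had log2 fold changes of -0.16 ± 0.07 (adjusted p = 0.0907) and -0.14 ± 0.06 (adjusted p = 0.115). Emp2 had one of 0.14 ± 0.06 (adjusted p = 0.129). The 95% intervals of all 8 genes lay between -0.43 and 0.35 at 3 months and between -0.30 and 0.455 at 9 months in air.

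Some of these diet results depended on the fit or on single rats. In a fit of the air groups alone, Akap5 was called lower on the high-fat diet at 3 months (-0.25, edgeR adjusted p = 0.0311). Without regular-diet air rat 4, Ager (-0.19, edgeR adjusted p = 0.0418) and Hopx (-0.17, adjusted p = 0.0405) were called at 9 months. Without high-fat air rat 6 or regular-diet air rat 6, Clic5 was called higher on the high-fat diet (0.31, edgeR adjusted p = 0.0292, and 0.30, adjusted p = 0.0426). Without high-fat silica rat 2, Aqp5 was called higher in high-fat than in regular-diet silica rats at 9 months (0.21, edgeR adjusted p = 0.0358).

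No member's silica difference was shown to depend on diet. The interaction test called 0 of 8 at 3 months (background: 0% of genes) and 0 of 8 at 9 months (background: 1.09%), and 0 of 8 had an unadjusted p below 0.05 at either time, against 6.5% and 14.2% of all genes. DESeq2 and limma also called 0 at both times. The 95% intervals of the 8 interactions lay between -0.29 and 0.37 at 3 months and between -0.44 and 0.36 at 9 months on the log2 scale.

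The silica difference grew between 3 and 9 months for Rtkn2. In a joint fit of both tables (15759 genes), its silica difference was lower at 9 than at 3 months by -0.35 ± 0.11 on the regular diet (edgeR adjusted p = 0.0378) and by -0.42 ± 0.10 on the high-fat diet (adjusted p = 0.00525). It was the 1 member of 8 called on each diet, against a background of 6.78% of genes called and 3.07% lower on the regular and 10.7% called and 4.12% lower on the high-fat diet. Hopx on the regular diet missed the threshold (-0.29 ± 0.09, adjusted p = 0.0504), as did Akap5 on the high-fat diet (-0.29 ± 0.12, adjusted p = 0.106). DESeq2 called the Hopx change (adjusted p = 0.0347). So did edgeR with upper quartile scaling (-0.31, adjusted p = 0.0307) and with Rnr1 and Rnr2 left out (-0.30, adjusted p = 0.0419). It was also called without air rat 1, 2 or 3 or silica rat 1, 2, 4 or 5 at 3 months. The same held without air rat 2, 3, 4, 5 or 6 or silica rat 4 at 9 months. These fits without 1 rat gave -0.35 to -0.30 and edgeR adjusted p-values from 0.0122 to 0.0492. For Ager the change was -0.08 ± 0.10 (adjusted p = 0.711) and 0.06 ± 0.10 (adjusted p = 0.767).

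The regular-diet time change of Rtkn2 was close to the threshold. It was no longer called when 1 of 7 rats was left out (air rats 2 and 4 and silica rat 5 at 3 months, air rat 1 and silica rats 1, 2 and 3 at 9 months), with log2 values from -0.36 to -0.31 and edgeR adjusted p-values from 0.0524 to 0.0853, nor with the share of Rnr1 and Rnr2 in the fit (-0.31, adjusted p = 0.247). On the high-fat diet it was called in each of 30 alternative fits, with values from -0.49 to -0.38. Time, age and table cannot be told apart here, and at 9 months neither can the share and silica be fully told apart.

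The gap between members can also be read within each rat. At 9 months the log2 level of Rtkn2 minus that of Ager averaged -1.87 ± 0.19 (SD, n = 6) in regular-diet air and -2.29 ± 0.08 (n = 5) in silica, and -1.81 ± 0.08 (n = 6) in high-fat air and -2.38 ± 0.17 (n = 6) in silica. The highest silica rat, at -2.16, lay below the lowest air rat, at -2.14. At 3 months these averages were -1.85 ± 0.20 (n = 4) and -2.02 ± 0.07 (n = 5) on the regular diet and -1.88 ± 0.05 (n = 5) and -1.98 ± 0.13 (n = 5) on the high-fat diet, with overlapping ranges. These within-rat values were not tested.

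**Figure D3:**
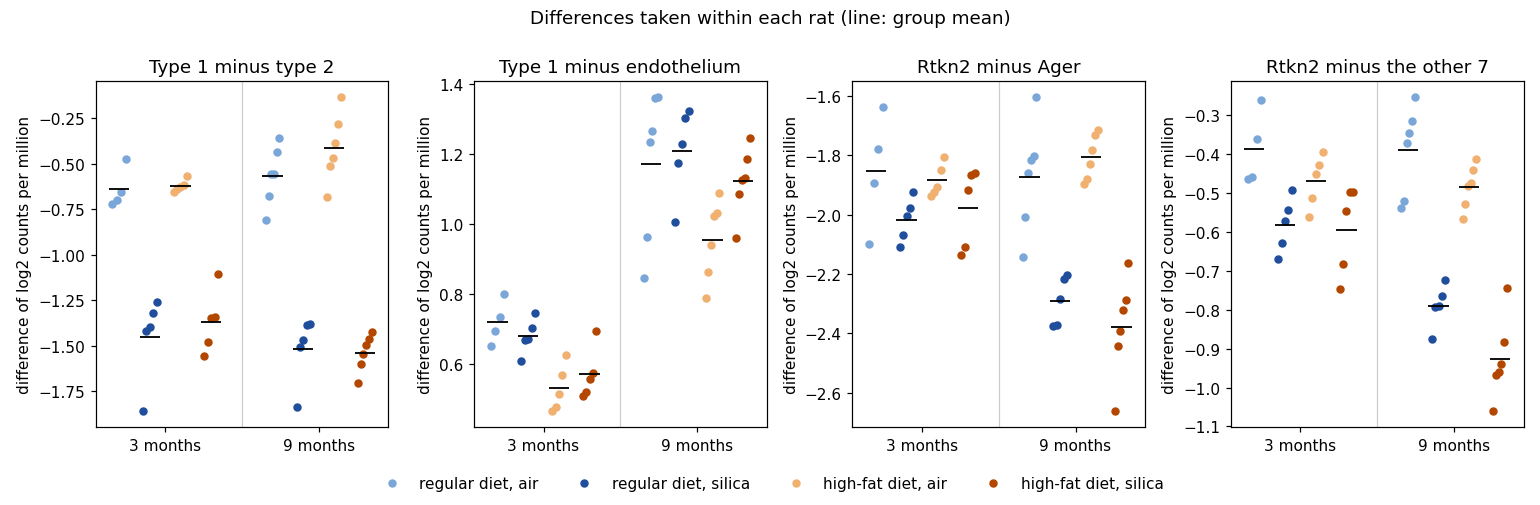
Differences of log2 CPM taken within each rat, by group at 3 and 9 months (points are rats, lines are group means, and the y axes differ). The 4 plots give the mean of the 8 type 1 genes minus that of 10 type 2 genes, the same minus 10 endothelial genes, Rtkn2 minus Ager, and Rtkn2 minus the mean of the other 7. The type 1 minus type 2 difference is lower in every silica group, and the type 1 minus endothelium ranges of silica and air overlap.

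Other genes enriched in type 1 cells fell as well. Of 18 such genes 10 fell and 1 rose on the regular diet and 12 fell and 0 rose on the high-fat diet at 3 months, and 14 fell and 2 rose, and 13 fell and 3 rose, at 9 months. Their medians were -0.23, -0.24, -0.38 and -0.40. Beside these and the later list counts stand the shares of all genes tested. Called lower were 6.6% and 8.19% at 3 months and 20.6% and 24.9% at 9 months on the regular and the high-fat diet. Called higher were 10.2% and 9.23% at 3 months and 24.5% and 26.7% at 9 months. Cav2 and Cav1, the caveolins that form the membrane pits abundant in type 1 cells and in endothelium, had log2 fold changes of -1.02 (adjusted p = 3.24e-11) and -0.78 (adjusted p = 3.96e-08) in regular-diet silica rats at 9 months. Cldn18, a tight-junction claudin of both alveolar cell types, went the other way with 1.01 (adjusted p = 9.71e-10) on the regular and 0.50 (adjusted p = 1.98e-05) on the high-fat diet.

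Among the genes around the type 1 programme, falls outnumbered rises at both times. Of 14 regulators and YAP/TAZ targets, 5 fell and 1 rose on each diet at 3 months, and 11 and 10 fell and 1 rose at 9 months. Lats2, a kinase that restrains YAP/TAZ and is itself a target, fell by 0.54 (adjusted p = 3.02e-07) and Tead4, a DNA-binding partner of YAP/TAZ, fell by 0.50 (adjusted p = 3.55e-06) on the log2 scale in regular-diet silica rats at 9 months. The gene that rose was Nkx2-1, a lung epithelial transcription factor of both alveolar cell types, with log2 fold changes of 0.37, 0.41, 0.40 and 0.84 in the 4 comparisons (edgeR adjusted p from 9.36e-07 to 0.0245).

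Basement membrane genes of the alveolar wall fell in part. Of 13 tested 6 and 7 fell at 3 months, and 8 and 9 fell with 1 and 2 higher at 9 months, on the regular and the high-fat diet. The collagen IV genes led the list: Col4a3 fell by 0.64 (adjusted p = 1.36e-07) and Col4a4 by 0.56 (adjusted p = 8.65e-08) on the log2 scale in regular-diet silica rats at 9 months. Both also stand on the list of type 1 genes.

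Transport genes of the alveolar wall did not follow Aqp5. Of 9 tested, 3 rose and 1 fell, and 3 rose and 2 fell, at 3 months, and 5 rose and 2 fell, and 5 rose and 3 fell, at 9 months. Of all genes at 9 months, 24.5% and 26.7% rose and 20.6% and 24.9% fell. Atp1b1, a subunit of the sodium-potassium pump, had a log2 fold change of 0.95 in regular-diet silica rats at 9 months (adjusted p = 2.72e-08). The endothelial water channel Aqp1 had one of -0.62 (adjusted p = 1.22e-07), and Aqp3, a water and glycerol channel, one of 1.95 (adjusted p = 7.18e-07).

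Markers of the transitional state between type 2 and type 1 cells moved in both directions. Of 14 tested, 2 rose and 1 fell, and 2 rose and 2 fell, at 3 months, and 7 rose and 2 fell, and 6 rose and 2 fell, at 9 months. Of all genes at 9 months, 24.5% and 26.7% rose and 20.6% and 24.9% fell. The share of the list that fell at 9 months was below that of all genes. Cldn4, a claudin, and Plaur, the urokinase receptor, rose by 1.53 (adjusted p = 1.78e-06) and 1.23 (adjusted p = 1.02e-07) in regular-diet silica rats at 9 months. Lgals3, a galectin that macrophages also make, rose by 1.07 (adjusted p = 1.23e-06). Krt8, the keratin most often used to name the state, had a log2 fold change of -0.29 (adjusted p = 0.00847) there.

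**Figure D4:**
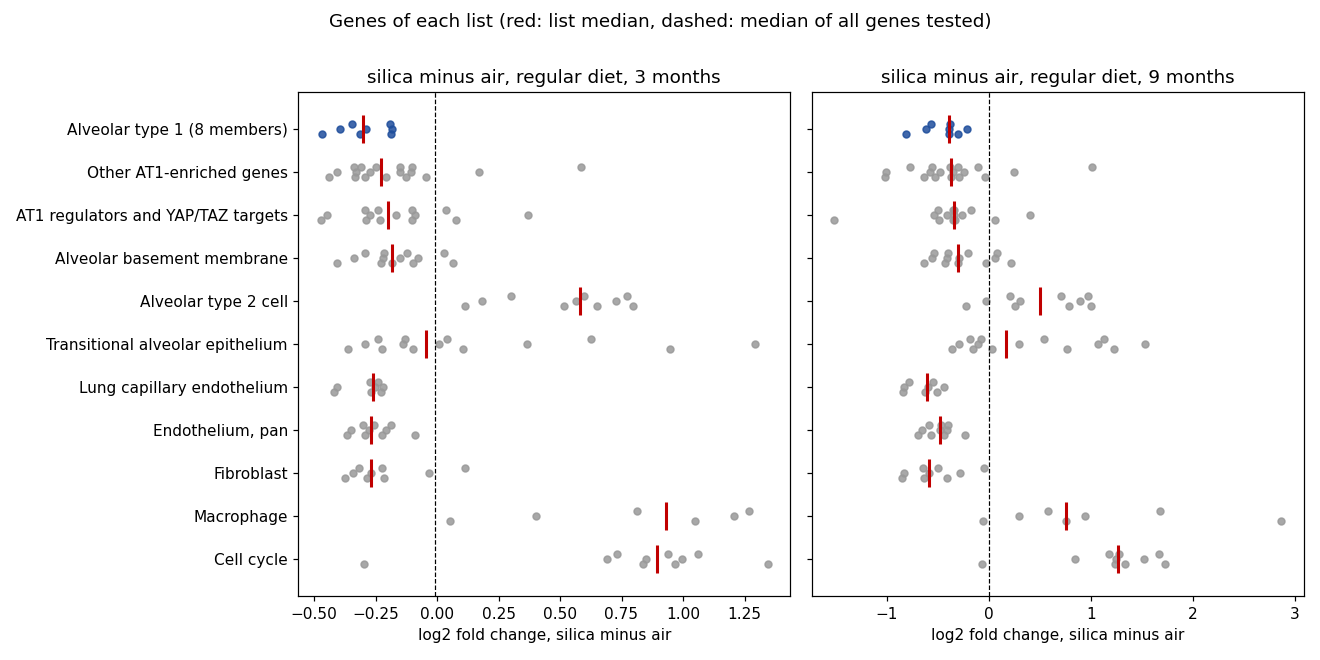
Genes of 11 lists in the regular-diet silica comparison at 3 months (left) and 9 months (right). The x axis gives the log2 fold change, with a scale of its own in each plot, points are genes, red bars are list medians and the dashed line is the median of all genes tested. The 8 type 1 genes have medians of -0.30 and -0.39, the type 2 list 0.58 and 0.50, and the pan-endothelial list -0.27 and -0.48.

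Type 2 markers moved opposite to type 1 markers. Of 10 tested, 8 rose and 0 fell on each diet at 3 months, 7 rose and 1 fell on the regular diet at 9 months, and 8 rose and 1 fell on the high-fat diet at 9 months, with medians of 0.58, 0.50, 0.50 and 0.86. Sftpa1, a surfactant protein, rose by 1.00 (adjusted p = 8.74e-09) and Lpcat1, an enzyme of surfactant lipid synthesis, by 0.89 (adjusted p = 1.78e-09) in regular-diet silica rats at 9 months. The gene that fell at 9 months was Etv5, a transcription factor of type 2 cells, with a log2 fold change of -0.23 on each diet (adjusted p = 0.0104 and 0.00494).

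Within each rat, the mean log2 level of the 8 type 1 genes minus that of the 10 type 2 genes averaged -0.64 ± 0.11 (SD, n = 4) in regular-diet air and -1.45 ± 0.24 (n = 5) in silica at 3 months. Among high-fat rats it averaged -0.62 ± 0.03 (n = 5) and -1.37 ± 0.17 (n = 5). At 9 months it was -0.57 ± 0.16 (n = 6) and -1.52 ± 0.19 (n = 5) on the regular diet, and -0.41 ± 0.19 (n = 6) and -1.54 ± 0.10 (n = 6) on the high-fat diet. No silica rat reached an air rat in any of the 4 pairs of groups. Against the 10 pan-endothelial genes the same 8 genes averaged 0.72 ± 0.06 and 0.68 ± 0.05, 0.53 ± 0.07 and 0.57 ± 0.07, 1.17 ± 0.22 and 1.21 ± 0.13, and 0.96 ± 0.11 and 1.12 ± 0.10 in air and silica, in the same order and with the same numbers of rats. Those ranges overlapped in each pair.

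Markers of the other cells of the lung piece moved with silica too. The summed level of the 8 members was 5149 to 5731 CPM in regular-diet air and 3973 to 4741 CPM in silica at 3 months, and 5573 to 6487 and 3886 to 4824 CPM at 9 months. Among high-fat rats it was 5004 to 5509.7 and 4112 to 4722 CPM at 3 months, and 5138 to 6204 and 4022 to 4759.9 CPM at 9 months. The 10 type 2 genes summed to 18755 to 22078.5 CPM in regular-diet air and 26742 to 35894 CPM in silica at 3 months, and to 17658 to 25997 and 29219 to 35228 CPM at 9 months. Among high-fat rats they summed to 18205 to 19564.5 and 24891 to 36104 CPM at 3 months, and to 15422.5 to 19358 and 31039 to 39946 CPM at 9 months. The air and silica ranges of both lists were separate in all 4 pairs.

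Endothelial, fibroblast and immune lists moved as follows. Of 10 pan-endothelial genes 7, 7, 9 and 10 fell and of 8 lung capillary genes 5, 6, 8 and 8 fell, in the order regular and high-fat diet at 3 months and then at 9 months. Tek, an endothelial receptor kinase, had log2 fold changes of -0.36, -0.43, -0.59 and -0.71. The summed pan-endothelial level at 9 months was 2791 to 3878 CPM in regular-diet air and 1877 to 2799.9 CPM in silica, and 3499 to 3953 and 2339.7 to 2662 CPM on the high-fat diet. Of 9 fibroblast genes 3, 4, 7 and 9 fell, and the sum at 9 months was 1344 to 1474 and 890.9 to 1128 CPM on the regular and 1327 to 1483 and 868 to 978 CPM on the high-fat diet. The fibroblast collagen gene Col1a2 was at 0 in every rat at 9 months and below 1 CPM on average at 3 months.

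Macrophage genes rose in 5 and 4 of 6 tested at 3 months and in 6 and 6 of 7 at 9 months, with Cd68, a lysosomal protein of macrophages, at log2 fold changes of 1.21, 1.21, 1.68 and 2.26. Their summed level at 9 months was 716 to 937 CPM in regular-diet air and 1044 to 1348 CPM in silica, and 571 to 664 and 951 to 1127 CPM on the high-fat diet. Neutrophil genes rose in 5, 2, 6 and 4 of 6, and their 9-month sums were 120.7 to 395 and 551 to 1431 CPM, and 202 to 328 and 937 to 1209.99 CPM. Cell cycle genes rose in 9, 8, 9 and 9 of 10, with Mki67, a proliferation marker, at 0.94, 0.91, 1.66 and 1.51. The part of these other cell types in the fall of the type 1 markers was not tested.

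Mesothelial genes fell in 0, 0, 2 and 4 of 4, in the same order of comparisons. At 9 months their sums were 53.5 to 169 CPM in air and 37.4 to 129.9 CPM in silica on the regular diet (median log2 fold change -0.61), and 57.5 to 136 and 19.5 to 42.0 CPM on the high-fat diet (median -2.21). In high-fat silica rats at 9 months 3 of 7 cardiac muscle genes fell (median -1.66), with sums of 212 to 1975 and 200.1 to 754 CPM. Ciliated genes fell in 1, 1, 4 and 6 of 7, club and basal genes in 0, 0, 1 and 2 of 6, and lymphatic endothelial genes in 3, 2, 4 and 6 of 6. T cell genes rose in 0 and 0 of 6 and then in 6 and 3 of 8, and B and plasma cell genes rose in 0, 1, 1 and 1 of 4. Of all genes at 9 months, 24.5% and 26.7% rose and 20.6% and 24.9% fell. The B and plasma cell counts and the club and basal counts at 9 months lay near those shares. The part of these lists in the members' results was not tested.

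How the members vary among rats of the same group was described after each group's mean was subtracted. Each member's log2 CPM was correlated with the mean of the other 7 across 19 rats at 3 months and 23 at 9 months, rats that share a table and a scaling. Aqp5 followed the others most closely at 3 months (r = 0.82), with Emp2 next (0.80), and Akap5 did at 9 months (0.80), with Rtkn2 next (0.74). Clic5 had the lowest value at both times (0.28 and 0.38). Rtkn2 and Akap5 correlated with each other at 0.63 at 3 months and 0.77 at 9 months, and Rtkn2 and Pdpn at 0.04 and 0.37.

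Among 12368 other genes, the 8 whose within-group variation was most like the mean of the members at both times were Cdc42bpg, Spock2, Ptpn14, Vegfa, Kank2, Sparc, Akap2 and Frem2. Their correlations averaged over the 2 times ran from 0.77 (Cdc42bpg, a kinase that acts downstream of Cdc42, and Spock2, an extracellular proteoglycan) to 0.73 (Frem2, a basement membrane protein), against a median of 0.01 over all genes compared. Vegfa, an endothelial growth factor made in alveolar epithelium, averaged 0.74. Spock2 and Vegfa are on the list of other type 1 genes, whose median correlation was 0.43 at 3 and 0.64 at 9 months. The type 2 list had medians of -0.07 and -0.12, the lung capillary list 0.58 and 0.24, and the cell cycle list -0.41 and -0.32.

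These 8 genes also fell in the silica comparisons. The correlations did not use the group differences, but both came from the same rats, libraries and scaling. On the regular and the high-fat diet 7 and 7 of 8 fell at 3 months and 8 and 8 of 8 at 9 months. Of all genes tested, 6.6% and 8.19% were called lower at 3 months and 20.6% and 24.9% at 9 months. Cdc42bpg had log2 fold changes of -0.27, -0.20, -0.64 and -0.57, and Vegfa of -0.29, -0.28, -0.48 and -0.51, in the order regular and high-fat diet at 3 months and then at 9 months. Ptpn14 on the regular diet (-0.22, adjusted p = 0.0546) and Sparc on the high-fat diet (-0.13, adjusted p = 0.0934) were the pair that missed the threshold at 3 months.

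The members' gene spans in RefSeq's table differ widely, from 3199 bases for Ager to 102510 for Clic5. At 9 months the median log2 fold change over 5 equal groups of genes by span went from 0.06 in the shortest to -0.09 in the longest on the regular diet and from 0.08 to -0.12 on the high-fat diet (82.5% of genes tested had a span). The 8 members fell into the 5 groups as 2, 1, 2, 2 and 1. Ager and Aqp5, the pair in the shortest group, had log2 fold changes of -0.39 and -0.39 on the regular diet at 9 months, below that group's median of 0.06.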

How the data were processed

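The authors deposited raw read counts per gene symbol, 1 table per time point with 1 column per rat, per the labels and the deposited tables. The submitters' processing notes list, with no order, HTSeq 0.6.1, TopHat2 2.0.9, SAMtools 0.1.19, Trimmomatic 0.35, bcl2fastq 2.19, Bowtie2 2.2.9 and, as genome, Rnor_6.0. The libraries were stranded, rRNA-depleted total RNA. The strand setting and annotation are not given in the sources used here, so overlapping genes are uncertain.

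Genes were filtered with filterByExpr (minimum count 10), scaled by TMM and tested with edgeR 4.0.16 quasi-likelihood fits in R 4.3.3, 1 fit per time point with all 4 groups, and 1 joint fit of 8 groups for changes with time. P-values were adjusted over all genes tested (Benjamini-Hochberg, threshold 0.05), for 12 comparisons. Scripts were tested on simulated data. DESeq2 1.42.0, limma 3.58.1 voom, other scalings, no filter, the Rnr1 and Rnr2 share as covariate and leaving out each rat were tried.

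The members and 20 other lists were chosen with earlier results of these data known. From each list the 3 genes with the smallest p in regular-diet silica at 9 months and the 2 smallest in high-fat silica at 3 months were named. Others named from the lists (Nkx2-1, S100b, Krt8, Etv5) were chosen after their values were seen. Some genes of the lists are not reported here. No tag occurs in more than 1 group, so rats could not be paired. Each column is 1 rat, and p-values judge group differences against the spread between rats of the same group. Correlations used log2 CPM (prior count 2) with group means subtracted, over genes with a mean log2 CPM of at least 1. Sequences and gene spans are RefSeq's (GRCr8), a later build than that of the counts.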

Additional observations from a re-analysis of the deposited data

Results flagged for a closer look

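In 4 of 64 member and group pairs 1 rat stood far from the rest of its group, judged by its gap to the nearest rat as a share of the group's range. Chance gives about 1 such group in 20. Regular-diet silica rat 4 at 3 months was lowest in both Rtkn2 (294 CPM, next 340.5) and Akap5 (456 CPM, next 595). High-fat silica rat 1 at 3 months was highest in Hopx (353 CPM, next 284). High-fat silica rat 2 at 9 months, the shallowest library, was lowest in Aqp5 (205 CPM, next 259).

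The silica difference of Rtkn2 differed between 3 and 9 months in the test of that difference, by -0.35 on the regular and -0.42 on the high-fat diet on the log2 scale.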

How the results depend on the processing

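No called value of the 8 genes changed sign under any alternative, and the number of members lower in silica ranged over all alternatives from 6 to 7 and from 5 to 7 at 3 months and from 7 to 8 and from 7 to 8 at 9 months on the regular and the high-fat diet. For the regular-diet time change, 2 members were called by DESeq2, with Rnr1 and Rnr2 left out and with upper quartile scaling, 0 with their share as covariate, and 0 to 2 when 1 rat was left out. For diet in air, 1 was called at 3 months in a fit of only those groups, and at 9 months 1 by DESeq2, 1 by limma and 0 to 2 without 1 rat. For diet in silica at 9 months the range without 1 rat was 0 to 1. Uncalled values near 0 changed sign. With the Rnr1 and Rnr2 share as covariate these were Clic5 0.18 in the regular-diet time change, Aqp5 -0.085 for diet in air at 9 months, Ager -0.027, Akap5 0.015 and Pdpn -0.034 for diet in silica at 9 months, and the interactions of Clic5 0.0099, Emp2 0.011 and Hopx 0.032 at 3 months and Emp2 0.012 at 9 months. Ager for diet in silica at 9 months was -0.00048 by DESeq2, -0.018 by limma, -0.0038 with only those groups, -0.00061 with RLE and -0.0093 with upper quartile scaling. By limma the interactions of Clic5 at 3 months and Emp2 at 9 months were 0.0059 and 0.0011. Leaving out 1 rat gave Ager -0.0058 to 0.087 in the high-fat time change, Hopx -0.065 to 0.0068 for diet in air and Rtkn2 -0.075 to 0.011 for diet in silica at 3 months, and Ager -0.053 to 0.056 and Akap5 -0.084 to 0.026 for diet in silica at 9 months. The interactions ranged for Ager from -0.033 to 0.089, Clic5 -0.11 to 0.040, Emp2 -0.045 to 0.019, Hopx -0.11 to 0.0075 and Pdpn -0.054 to 0.030 at 3 months, and for Akap5 from -0.021 to 0.089, Emp2 -0.049 to 0.026 and Rtkn2 -0.024 to 0.057 at 9 months. The cause was not tested. A fit of only the groups compared does not apply to interactions or time changes. Each member had at least 601 counts in every library.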
